A study of Mus musculus with 7 samples.

Results

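The transcripts described here encode subunits of the 5 enzyme complexes of oxidative phosphorylation, measured in mouse incisor tissue, the labial cervical loop, with and without deletion of Yap and Taz. The members are all probes whose array symbols follow a naming pattern, namely the Nduf subunits of complex I, the Sdh subunits of complex II, the Uqcr subunits of complex III, the Cox subunits of complex IV and the Atp5 subunits of complex V. They comprised 86 probes of 69 genes, among 25697 probes of 18138 symbols on the array. Complex I had 42 probes of 33 genes, complex II 6 probes of 3 genes, complex III 5 probes of 5 genes, complex IV 16 probes of 13 genes and complex V 17 probes of 15 genes. Ndufa4 was counted with complex I for its symbol, although its protein is now regarded as a subunit of complex IV, and Atp5s, now Dmac2l, was counted with complex V although it is not a core subunit. The catalytic subunit gene Sdha was not analysed here.

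In mitochondria, complexes I and II pass electrons from NADH and succinate to ubiquinone, complex III passes them on to cytochrome c, and complex IV passes them to oxygen. Complexes I, III and IV pump protons across the inner membrane, and complex V, the ATP synthase, uses the proton gradient to make ATP. Most subunits are encoded in the nucleus, and the transcription factors NRF1, GABP and YY1 are known to act on many of their promoters. Some complex IV subunits have tissue-specific isoforms, with Cox6a2, Cox7a1 and Cox8b made mainly in heart and skeletal muscle and Cox6b2, Cox7b2 and Cox8c mainly in testis.

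The labial cervical loop is the epithelial pocket at the base of the incisor that holds stem cells for enamel-forming cells. Control mice (3 samples) carried the Yap/Tazf/f alleles, and mutant mice (4 samples) carried K14CreER;Yap/Tazf/f, in which a tamoxifen-activated Cre is driven by the keratin 14 promoter, so that any mesenchyme in the dissected tissue would not be expected to recombine. All mice received 5 mg of tamoxifen on each of 2 days at 8 weeks of age, and tissue was taken 48 hours after the second dose. No control carried the Cre, so effects of Cre and effects of losing Yap and Taz cannot be told apart in any difference given here. Each sample gave 1 Illumina array, and the arrays lay on 2 chips, with 2 control and 2 mutant arrays on the first and 1 control and 2 mutant arrays on the second.

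On the 7 arrays 13767 to 14752 probes were detected, at median intensities of 80.8 to 86.2 and with a median of 31 to 38 beads per probe, and the number of arrays limits the precision. Of the targeted genes, Yap1 differed by -0.67 (log2, limma, SE 0.12 and adjusted p = 0.0445), with all mutant arrays below all control arrays, and Wwtr1, which encodes TAZ, differed by -0.15 (adjusted p = 0.819). The Yap1 call held in 4 of the 19 alternative settings and was lost in 15, with adjusted p from 0.0099 to 0.799 and differences from -0.74 to -0.43, all negative. The position of these probes relative to the floxed exons was not examined, so they are no full check of the deletion. The epithelial markers Krt14 and Krt5 read 9.95 ± 0.02 and 9.88 ± 0.09 (SD, n = 3) in control arrays on the normalised log2 scale, so the labelled tissue showed its epithelial markers. The labels do not state that each sample was a separate animal, so the p-values rest on the spread between samples that may be technical, and in bulk tissue fewer cells of a type and less RNA per cell cannot be told apart. Mutant replicate 1 was the highest of the 7 arrays for 28 of the 79 tested member probes (35.4%), against 16.4% of all 14666 tested probes, and the lowest for 3 of the 79, against 17.3% of all tested probes. Control replicate 3 was the highest for 18 (22.8%), against 14% of all tested probes, and the lowest for 11 (13.9%), against 13.1%. It is the only control of the second chip, so every difference within that chip rests on it. By complex, mutant replicate 1 was the highest array for 20 of 42 probes of complex I and 3 of 6 of complex II. It was so for 0 of 4 of complex III, 1 of 10 of complex IV and 4 of 17 of complex V. The probes share the same arrays and some counts are small, and whether complexes differed in this was not tested.

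Promoter windows, from 250 bases before to 50 bases after the transcription start, were taken from RefSeq on GRCm38.p6, where 58 of the 69 genes had one. Those of 4 genes are shown, in the direction of transcription, because they belong to members described below. Cox6a1 and Cox7a1 stand for a general and a muscle isoform of different complex IV subunits, the first detected on all arrays and the second on 1. Sdhd and Atp5h had the smallest unadjusted p of complexes II and V. Capitals mark matches on either strand to GCGCATG (the NRF1 core), CCGGAAG (the core of ETS factors such as GABP), AAGATGG (the YY1 core) or GGAATG (the core of TEAD, the DNA-binding partner of YAP and TAZ). The windows lie at chr5:115348909-115349208 on the minus strand for Cox6a1, chr7:30183921-30184220 on the plus strand for Cox7a1, chr9:50603800-50604099 on the minus strand for Sdhd and chr11:115419870-115420169 on the minus strand for Atp5h.
Cox6a1: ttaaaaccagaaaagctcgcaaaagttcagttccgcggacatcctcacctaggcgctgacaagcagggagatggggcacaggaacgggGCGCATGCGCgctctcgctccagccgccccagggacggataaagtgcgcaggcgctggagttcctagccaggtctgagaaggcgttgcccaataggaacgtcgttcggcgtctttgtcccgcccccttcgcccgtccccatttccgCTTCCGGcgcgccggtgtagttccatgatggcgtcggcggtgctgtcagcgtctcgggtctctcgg
Cox7a1: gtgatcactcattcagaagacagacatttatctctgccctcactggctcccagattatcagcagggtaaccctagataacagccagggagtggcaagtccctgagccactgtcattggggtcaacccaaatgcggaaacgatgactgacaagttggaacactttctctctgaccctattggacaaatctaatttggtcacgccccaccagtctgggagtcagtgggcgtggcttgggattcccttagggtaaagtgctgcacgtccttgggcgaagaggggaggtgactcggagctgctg
Sdhd: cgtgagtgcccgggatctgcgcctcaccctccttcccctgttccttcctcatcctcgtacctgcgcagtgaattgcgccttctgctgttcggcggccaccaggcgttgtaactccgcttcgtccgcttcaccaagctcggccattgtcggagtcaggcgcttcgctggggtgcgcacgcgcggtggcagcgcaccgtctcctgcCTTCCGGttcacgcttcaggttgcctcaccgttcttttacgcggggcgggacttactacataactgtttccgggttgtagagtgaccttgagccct
Atp5h: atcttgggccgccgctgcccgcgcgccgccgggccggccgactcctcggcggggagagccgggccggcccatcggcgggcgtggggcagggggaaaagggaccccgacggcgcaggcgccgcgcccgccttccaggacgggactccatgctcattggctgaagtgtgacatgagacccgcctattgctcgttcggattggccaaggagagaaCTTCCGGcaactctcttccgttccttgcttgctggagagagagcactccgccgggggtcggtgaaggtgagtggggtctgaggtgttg

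The Cox6a1 window held a palindromic NRF1 match, in which the core is read on both strands with an overlap, starting at position -162 from the transcription start, and an ETS match at -16. Sdhd and Atp5h held an ETS match at -46 and -38. The Cox7a1 window held none of these letters. Across the 60 windows of the 55 member genes that were tested on the arrays and had a window, 18.3% held the NRF1 core, against 4.80% of 21262 windows of protein-coding genes. The ETS core was in 23.3% against 11.6%, and the YY1 core in 16.7% against 6.24%. For the TEAD core the shares were 13.3% and 13.6%. Windows of 1 gene can overlap, and a match describes letters, not a bound site. The Cox7a1, Cox7b2 and Cox8b windows, the 3 windows of member genes with no tested probe, held 0 matches to any of the 4 cores. Many windows of tested genes held 0 matches too. Among these were the windows of Ndufa1, Ndufa4, Cox7b and Cox7a2, the general form beside Cox7a1, so a lack of matches does not set the undetected genes apart.

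**Figure D1:**
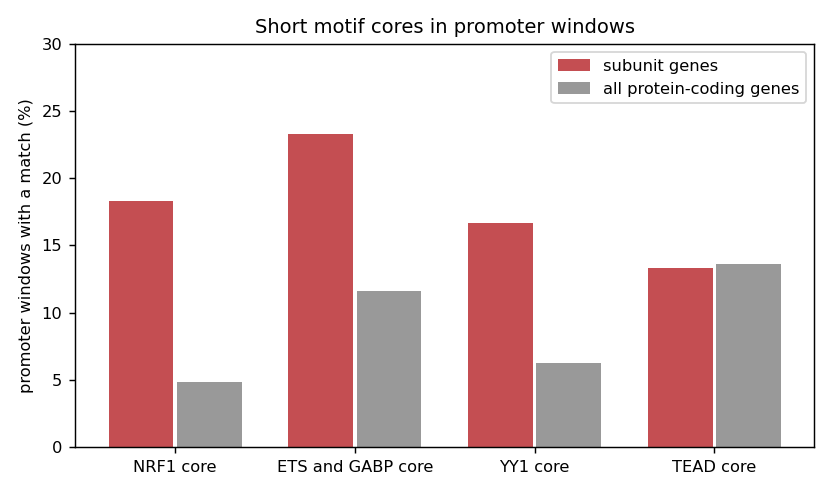
Bars give the percentage of promoter windows with a match to each short core on either strand, for the 60 windows of tested subunit genes (red) and the 21262 windows of protein-coding genes (grey). The NRF1 shares were 18.3% and 4.80%, while the TEAD shares were 13.3% and 13.6%.

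Nearly all general subunits were above background. Of the 86 member probes, 77 were detected on all 7 arrays at a detection p-value under 0.05, and 79 probes of 63 genes were detected on at least 3 arrays and were tested. All 33 genes of complex I, the 3 genes of complex II and the 15 genes of complex V had a tested probe. In complex IV, 8 of 13 genes did, and in complex III 4 of 5.

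The genes without a tested probe were 5 isoforms of complex IV and 1 subunit of complex III. Cox6a2, Cox7b2 and Cox8c were detected on 0 arrays, Cox7a1 on 1 mutant array and Cox8b on 1 control array. Their normalised log2 intensities on single arrays ran from 4.08 for Cox8c to 4.51 for Cox8b. Skeletal muscle markers were in the same state, with 2 of 13 genes tested and Acta1, Ckm, Myh4 and Tnnt3 detected on 0 arrays. The testis isoform Cox6b2 differed between its probes, one detected on 1 array and the other on all 7. The detected probe read 5.23, 5.13 and 4.99 in control and 5.06, 5.29, 4.93 and 5.08 in mutant arrays. The groups overlapped, and the fitted difference was 0.0048 (SE 0.11), with a sign that changes under 7 of the 19 alternatives. Uqcrq, a small subunit of complex III that cells in general use, was detected on 0 arrays by its single probe, which gives no measure of its transcript.

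The comparison of genotypes asked whether subunit transcripts differed between mutant and control loops 48 hours after the last dose. None of the 79 tested member probes passed the test. Limma called 0 of them at an adjusted p under 0.05, against 9 of 14666 probes over the whole array (0.0614%, of which 0.0341% higher and 0.0273% lower in mutant arrays), and the smallest adjusted p among the members was 0.489. At an unadjusted p under 0.05 there were 2 members, Cox6c and Sdhd, both higher in mutant arrays, which is 2.53% of the members against 7.99% of all tested probes. That gap depends on the processing, since scaling each array to its median gave 9 of 79 members against 1694 of all 14666 tested probes. The groups failed to overlap for 0 of the 79 probes, against 6.55% of all tested probes (3.28% with the mutant arrays above and 3.27% below). In the authors' deposited table, 0 of 80 member probes had a q-value under 0.05, against 0.0757% of its 17174 probes, and 3 (3.75%) had a p-value under 0.05, against 10.9%, with the smallest q-value, 0.253, at Cox6c.

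Fitted differences of the members ran from -0.21 for Cox6a1 to 0.32 for Cox6c on the log2 scale, with a median of 0.014 and a median absolute difference of 0.071, against 0.00031 and 0.095 over all tested probes. Of the 79 probes 42 were higher and 37 lower. The spread between replicate arrays was alike, with a median SD of 0.15 for members and 0.15 for all tested probes. The 95% interval of a single difference lay within 0.5 of zero for 75 of the 79 probes, and within 1 for all 79, against 90.5% within 0.5 over all tested probes. The 4 intervals that reached past 0.5 were those of Ndufb4, Sdhd, Cox6c and Atp5h, each on the higher side, and the furthest bounds of all members were -0.45 and 0.57. The signs depend on the scaling of the arrays, since scaling each array to its median gave 72 higher and 7 lower in place of 42 and 37. With that scaling the median of all tested probes moved by 0.068, and that of the 1850 tested probes above the median member level by 0.13, beside a shift of 0.10 for the members. The share that was higher was then 91.1% of the members, 68.5% of all tested probes and 79.4% of those 1850, so much of the change is not particular to the members.

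**Figure D2:**
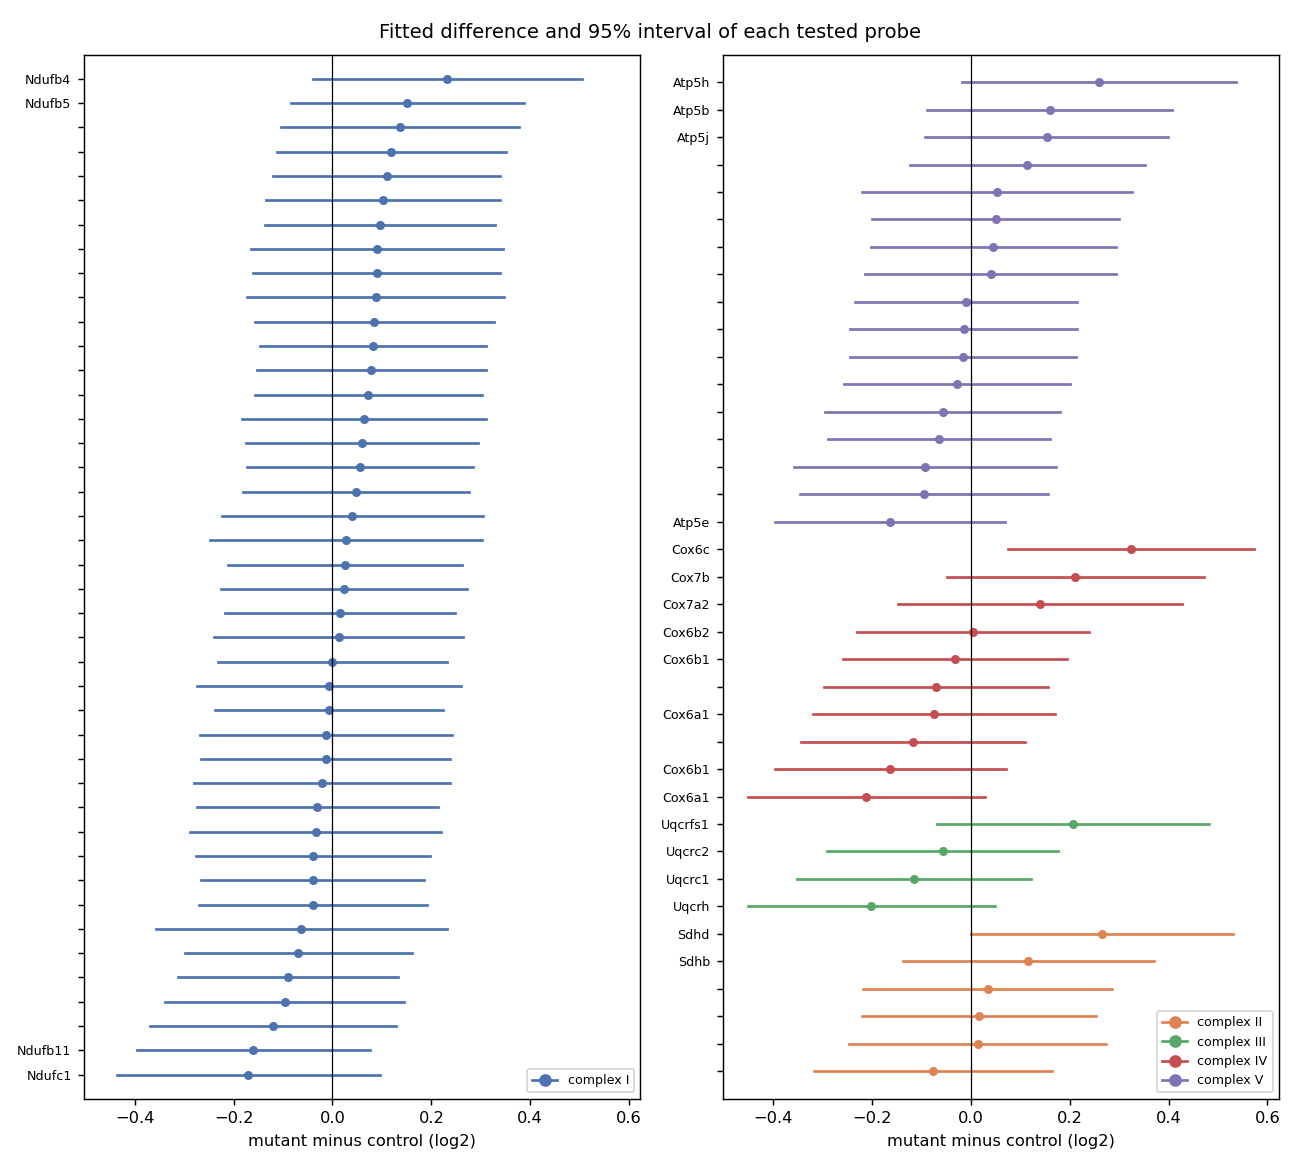
Each line is the 95% interval and each dot the fitted mutant minus control difference (log2) of 1 tested probe, with complex I on the left and the other complexes on the right, and with names at the probes whose arrays are given one by one in the text. The intervals of Cox6c and, barely, Sdhd lie above 0, and those of the other 77 probes cross it.

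Complex I has a core of 7 nuclear-encoded subunits that carry the flavin and the iron-sulphur clusters, and many accessory subunits around it. The mean of its 42 tested probes was 7.02, 7.04 and 6.999 in control replicates 1 to 3 and 7.14, 7.002, 6.998 and 6.99 in mutant replicates 1 to 4, on the normalised log2 scale. The control arrays thus lay within the range of the mutant arrays, with mutant replicate 1 above all others. The median difference was 0.024, with 24 probes higher and 18 lower, and within the chips it was 0.050 and -0.017. Without mutant replicate 1 the median was -0.025.

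The core subunits of complex I showed small values in both directions. Over their 8 probes, differences ran from -0.06 to 0.14, 4 above and 4 below zero. Ndufv2, an iron-sulphur subunit of the NADH-oxidising arm, differed by 0.14 (SE 0.11, adjusted p = 0.793), and Ndufs1, the large iron-sulphur subunit, by 0.09 (SE 0.12, adjusted p = 0.885). Ndufs7, which holds the last iron-sulphur cluster before ubiquinone, was the lowest of them at -0.06 (SE 0.14). The 34 probes of accessory subunits ran from -0.17 to 0.23, with 20 higher and 14 lower.

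The accessory subunit Ndufb4 of the membrane arm had the smallest unadjusted p of complex I. Its probe read 7.24, 7.74 and 7.44 in control replicates 1 to 3 and 7.80, 7.90, 7.56 and 7.41 in mutant replicates 1 to 4. The groups overlapped, with mutant replicates 1 and 2 above the highest control and mutant replicate 4 below 2 of the controls. Within the chips the fitted difference of 0.23 (SE 0.13, adjusted p = 0.668) was 0.36 and 0.04. Ndufb5, another membrane arm subunit, read 7.46, 7.64 and 7.35 in control and 7.69, 7.75, 7.59 and 7.35 in mutant arrays. The groups overlapped, and it differed by 0.15 (SE 0.11, adjusted p = 0.770).

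Among the lower probes of complex I, Ndufc1 read 6.45, 6.14 and 6.24 in control and 6.08, 5.90, 6.43 and 6.12 in mutant arrays on the probe that differed most. These groups overlapped, mutant replicate 3 lying near the highest control. The difference was -0.17 (SE 0.13, adjusted p = 0.770), while the other Ndufc1 probe differed by 0.04. Ndufb11, an X-linked accessory subunit, read 5.09, 5.13 and 5.01 in control and 5.03, 4.76, 4.89 and 4.96 in mutant arrays on its lower probe. Mutant replicate 1 lay within the control range and the other mutant arrays below it, and this probe differed by -0.16 (SE 0.11, adjusted p = 0.751) and the other by -0.0070. Ndufs4, an accessory subunit whose loss causes Leigh-like disease in mice, had 4 probes, and they differed by 0.05 to 0.10, all of the same sign.

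Complex II, succinate dehydrogenase, joins the citric acid cycle to the respiratory chain, with Sdhb as the iron-sulphur subunit and Sdhc and Sdhd as the membrane anchors. Its mean over 6 probes was 6.73, 6.76 and 6.72 in control and 6.94, 6.79, 6.64 and 6.74 in mutant arrays, so the mutant arrays spread to both sides of the controls. The median difference was 0.026 (0.095 and -0.043 within the chips), with 5 probes higher and 1 lower. Sdhd read 7.94, 8.25 and 7.93 in control and 8.61, 8.29, 8.18 and 7.93 in mutant arrays. Mutant replicate 1 was the highest and mutant replicate 4 level with the lowest controls. Its difference was 0.27 (SE 0.13, 95% interval 0.00 to 0.53, unadjusted p = 0.0497, adjusted p = 0.622), and the chips gave 0.36 and 0.13. One of the 3 Sdhb probes read 5.55, 5.44 and 5.94 in control and 5.79, 5.82, 5.68 and 5.84 in mutant arrays. Control replicate 3 was the highest, so the groups overlapped, and the difference was 0.12 (SE 0.12, adjusted p = 0.845), with -0.17 on the second chip. The other Sdhb probes differed by -0.08 and 0.03, and the Sdhc probes by 0.01 and 0.02.

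Complex III was represented by 4 tested probes, with means of 7.08, 7.12 and 7.23 in control and 7.19, 7.07, 7.06 and 7.11 in mutant arrays, and the groups overlapped. The median difference was -0.086, with 1 probe higher and 3 lower, and it was negative on both chips (-0.063 and -0.13). With median scaling it was 0.043. The hinge subunit gene Uqcrh, whose protein supports electron transfer to cytochrome c, read 7.71, 7.61 and 8.10 in control and 7.73, 7.37, 7.72 and 7.81 in mutant arrays. Control replicate 3 was the highest and mutant replicate 2 the lowest. The difference was -0.20 (SE 0.12, adjusted p = 0.691). Uqcrfs1, the Rieske iron-sulphur protein, read 5.203, 5.49 and 5.47 in control and 5.68, 5.88, 5.28 and 5.39 in mutant arrays. Only the mutant arrays of the first chip were above the controls, and the difference of 0.21 (SE 0.13, adjusted p = 0.718) was 0.43 and -0.13 within the chips. The core protein gene Uqcrc1 read 7.61, 7.47 and 7.41 in control and 7.41, 7.27, 7.34 and 7.51 in mutant arrays. Its partner Uqcrc2 read 7.81, 7.92 and 7.95 in control and 7.92, 7.78, 7.92 and 7.74 in mutant arrays. Both overlapped between the groups. Uqcrc1 and Uqcrc2 differed by -0.12 and -0.06, and with median scaling by 0.01 and 0.07, so their sign flips with the scaling.

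Complex IV, cytochrome c oxidase, had 10 tested probes of 8 genes, all of nuclear-encoded subunits that surround the catalytic core made in the mitochondrion. Its mean was 7.80, 7.78 and 7.84 in control and 7.89, 7.79, 7.79 and 7.75 in mutant arrays, with mutant replicates 1 and 4 outside the range of the controls on opposite sides. The median difference was -0.051, with 4 probes higher and 6 lower, and 0.077 with median scaling, while the mean of the same differences was 0.0010. Within the chips the median was -0.026 and -0.085.

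Cox6c, a small transmembrane subunit, had the smallest p of all members. It read 8.89, 9.09 and 8.86 in control and 9.40, 9.51, 9.06 and 8.88 in mutant arrays. Both mutant arrays of the first chip exceeded all controls, while those of the second chip lay within the control range. The difference of 0.32 (SE 0.12, 95% interval 0.08 to 0.57, unadjusted p = 0.0134) did not pass over all probes (adjusted p = 0.489), and the chips gave 0.46 and 0.11. Cox7b, another small membrane subunit, read 7.85, 8.12 and 8.05 in control and 8.39, 8.40, 7.98 and 7.96 in mutant arrays. The first-chip mutant arrays again exceeded all controls and the others did not. It differed by 0.21 (SE 0.12, adjusted p = 0.688), with 0.41 and -0.08 on the 2 chips.

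The general isoform Cox6a1 had the lowest difference of the members. Its lower probe read 7.76, 7.64 and 8.01 in control and 7.65, 7.57, 7.69 and 7.54 in mutant arrays. The groups overlapped at control replicate 2, and control replicate 3 was well above the others. Within the chips the difference of -0.21 (SE 0.11, adjusted p = 0.658) was -0.09 and -0.39. The other Cox6a1 probe read 7.64, 7.29 and 7.77 in control and 7.50, 7.34, 7.66 and 7.64 in mutant arrays. It overlapped between the groups and differed by -0.07, and by 0.05 with median scaling. Cox6b1, the general isoform on the intermembrane side, read 8.49, 8.43 and 8.64 in control and 8.37, 8.12, 8.55 and 8.56 in mutant arrays on one probe. On the other it read 9.46, 9.53 and 9.53 in control and 9.49, 9.38, 9.50 and 9.57 in mutant arrays. The groups overlapped on both, and the differences were -0.16 and -0.03, the latter at 0.09 with median scaling. Cox7a2, the general form beside Cox7a1, read 5.86, 5.67 and 5.48 in control and 6.18, 5.55, 5.78 and 5.58 in mutant arrays. Mutant replicate 1 was well above the other arrays, and the gene differed by 0.14 (SE 0.14, adjusted p = 0.837), or -0.011 without that array. Cox5a and Cox5b, on the matrix side, differed by -0.12 and -0.07.

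**Figure D3:**
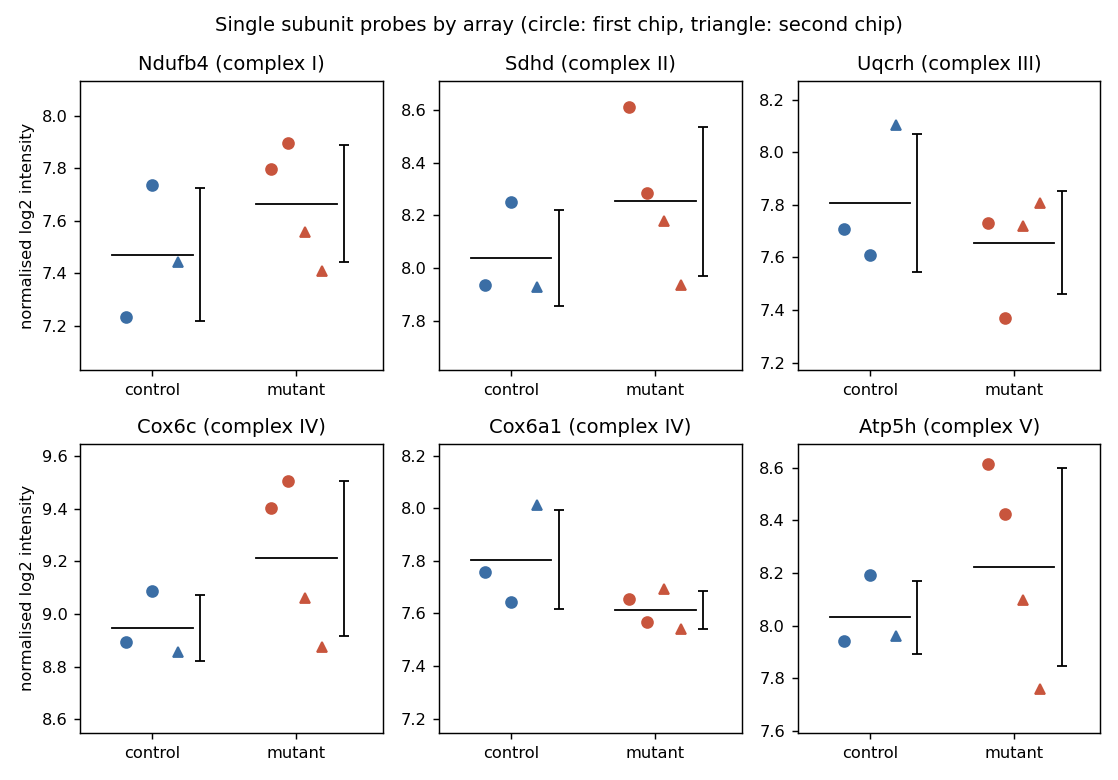
Normalised log2 intensity on each array of 6 member probes, with circles for the first chip and triangles for the second, a line at the group mean and a bar of 1 SD beside it (control n = 3, mutant n = 4). In Ndufb4, Sdhd, Cox6c and Atp5h the mutant circles lie above the mutant triangles, and in each of the 6 panels the groups overlap.

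Complex V consists of the F1 head, which makes ATP, and a membrane rotor with stalks that join it to the head. Its 17 probes had means of 7.47, 7.47 and 7.62 in control and 7.61, 7.51, 7.55 and 7.52 in mutant arrays, so that control replicate 3, the control of the second chip, was the highest. The median difference was -0.0094, with 8 probes higher and 9 lower, and the chips gave 0.10 and -0.076. It was 0.10 with median scaling, and the mean of the same differences was 0.020.

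The F1 subunits Atp5a1, Atp5b, Atp5c1, Atp5d and Atp5e differed by -0.16 to 0.16. The catalytic subunit Atp5b read 8.90, 9.04 and 9.14 in control and 9.32, 9.23, 9.19 and 8.98 in mutant arrays. The groups overlapped, and its difference was the highest of the 5 (0.16, SE 0.12, adjusted p = 0.770) and its partner in the hexamer, Atp5a1, differed by -0.01 (SE 0.11). The small stalk subunit Atp5e read 9.06, 8.93 and 9.12 in control and 8.71, 8.77, 9.07 and 9.13 in mutant arrays. The mutant arrays of the first chip were below all controls and those of the second were not, and the difference was -0.16 (SE 0.11, adjusted p = 0.738).

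Among the other subunits of complex V, the peripheral stalk subunit Atp5h read 7.94, 8.19 and 7.96 in control and 8.62, 8.42, 8.10 and 7.76 in mutant arrays. The mutant arrays spanned the whole control range and reached beyond it on both sides. Within the chips the difference of 0.26 (SE 0.13, adjusted p = 0.642) was 0.45 and -0.03. Atp5j, another stalk subunit, read 6.94, 7.25 and 6.99 in control and 7.37, 7.32, 7.06 and 6.94 in mutant arrays on the probe of smallest p. The groups overlapped, and its 3 probes differed by 0.15, 0.05 and -0.03. The genes Atp5g2 and Atp5g3, which encode the same rotor ring protein, differed by 0.05 and -0.02.

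**Figure D4:**
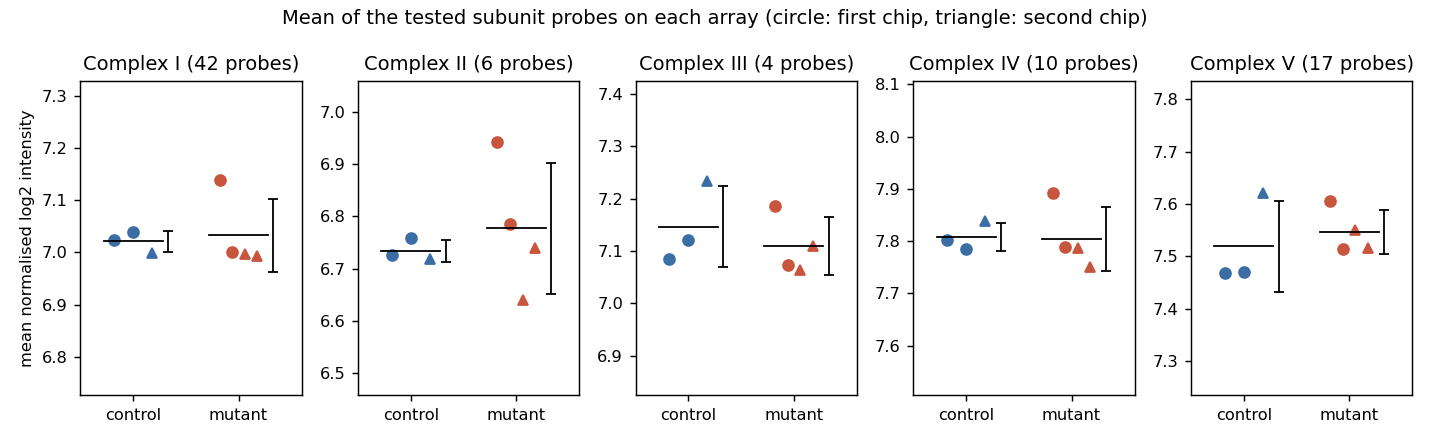
Mean normalised log2 intensity of the tested probes of each complex on each array, with circles for the first chip and triangles for the second, a line at the group mean and a bar of 1 SD beside it (control n = 3, mutant n = 4). The groups overlap in all 5 panels, each drawn over the same height of the log2 scale, and mutant replicate 1 (the highest mutant circle) leads the mutant arrays in each.

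The chips hold different control and mutant arrays and so give separate estimates of the genotype difference. Of the 79 member probes, 33 had the same sign on both chips (41.8%), against 8069 of all 14666 tested probes. On the first chip 47 members were higher in the mutant arrays, and on the second 31 were. Across the 79 probes the differences on the chips had a Pearson correlation of -0.064 and a Spearman correlation of -0.10, against 0.17 and 0.16 across all tested probes, where the points within a chip share the same arrays. By complex, the share of probes with the same sign on both chips was 70.0% for complex IV (7 of 10), 40.5% for complex I (17 of 42), 35.3% for complex V (6 of 17), 2 of 4 for complex III and 1 of 6 for complex II.

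**Figure D5:**
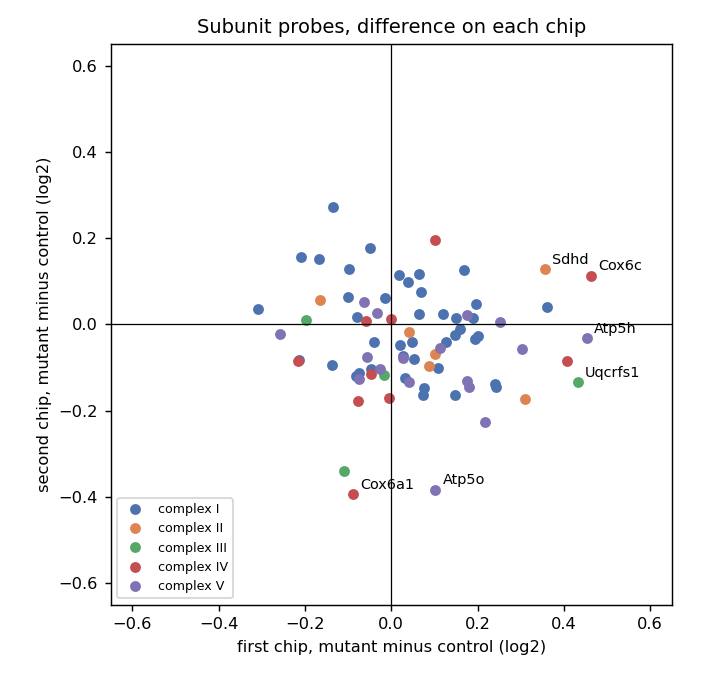
Each dot is 1 tested member probe, placed by its mutant minus control difference (log2) on the first chip (2 control and 2 mutant arrays) and on the second chip (1 control and 2 mutant arrays). The 33 probes with the same sign on both chips lie at the lower left and upper right of the zero lines, and no trend runs through the cloud (Pearson correlation -0.064).

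For 12 genes with several tested probes, the probes of 8 had the same sign and those of 4 (Atp5j, Ndufb6, Ndufc1 and Sdhb) did not. The probes of a gene differed from each other by a median of 0.13 and by at most 0.21, in Ndufc1. That median is above the median absolute difference between genotypes, but a range over several probes and a single absolute difference are unlike measures. Of the member genes, 7 have a named pseudogene in RefSeq, and signal from a near-identical copy cannot be told apart from that of the gene.

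Other genes that serve the respiratory chain were not called either. In 7 lists of further subunits, assembly factors, citric acid cycle enzymes, biogenesis factors, carriers and other chain enzymes, 75 genes were tested, at the brightest probe of each. Limma called 0 of these, and 7 (9.33%) had an unadjusted p under 0.05, close to the 7.99% of all tested probes, with 40 higher and 35 lower.

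Assembly factors of complexes II to V held the smallest p of these lists, with 0 of 14 called, 9 higher and 5 lower (median difference 0.065). Cox18, which inserts a core subunit of complex IV into the inner membrane, read 6.83, 7.05 and 6.89 in control and 7.30, 7.51, 7.51 and 7.28 in mutant arrays. Here the groups did not overlap, as for 6.55% of all tested probes. The difference was 0.48 (SE 0.12, adjusted p = 0.2995), with 0.46 and 0.50 on the chips and 0.20 on a second probe, where the groups overlapped. Of the genes of these 7 lists named below, the groups also did not overlap for Cyc1, Gabpa, Slc25a13, Slc25a4, Aifm1 and Pdha1 on the probe of smallest p. Genes were picked for a small p, so their lack of overlap cannot be set against the share over all probes. Tmem70, an assembly factor of complex V, differed by -0.39 (SE 0.12, adjusted p = 0.411) and by -0.17 on a second probe. For complex I, 5 assembly factors were tested, with a median of -0.022, Acad9 at -0.29 (adjusted p = 0.556; -0.02 on a second probe) and Foxred1 at 0.24 (adjusted p = 0.648; -0.09 to 0.15 on 3 other tested probes).

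Further subunits and regulators had a median of 0.066 over 10 genes. Atpif1, the inhibitor of complex V, differed by 0.26 (adjusted p = 0.627), and Cyc1, a cytochrome of complex III, by -0.18 (adjusted p = 0.702). Cox4i1, the general isoform of the largest nuclear-encoded subunit of complex IV, differed by -0.0081. The citric acid cycle had a median of -0.0064 over 13 genes, with the enzyme gene Dlst at -0.20 (limma adjusted p = 0.677).

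Biogenesis factors had a median of -0.026 over 14 genes, 7 higher and 7 lower. The GABP subunit genes Gabpa and Gabpb1 differed by -0.25 and -0.24 on the probes of smallest p (adjusted p = 0.571 and 0.634), while their other probes differed by 0.0069 and 0.10 for Gabpa and by 0.00044 for Gabpb1. Mitochondrial carriers and channels had a median of 0.20 over 9 genes, 5 higher and 4 lower. The aspartate and glutamate carrier Slc25a13 was at 0.37 (adjusted p = 0.479, and -0.05 on a second probe) and the ADP/ATP carrier Slc25a4 at 0.30 (adjusted p = 0.514). In the other direction, the channel gene Vdac1 differed by -0.28 (limma adjusted p = 0.620). The other chain enzymes had a median of -0.00028 over 10 genes. Among them Aifm1, a flavoprotein of the intermembrane space, differed by -0.48 (SE 0.12, adjusted p = 0.2995) on one probe but by -0.04 and 0.13 on others, and Pdha1, of pyruvate dehydrogenase, by -0.21 (adjusted p = 0.654).

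Markers of other cell types varied between these arrays. The 3 tested ameloblast markers had a median difference of 0.90, with list means of 6.43 to 6.81 in control and 6.79 to 8.24 in mutant arrays, and 0 of them was called. Macrophage markers had 1 of 9 tested genes called (Lyzs, a call lost in 11 of the 19 alternatives, beside 0.0614% of all probes called) and list means of 4.79 to 5.04 in control and 4.97 to 5.33 in mutant arrays. Odontoblast and osteoblast markers ran from 5.14 to 5.59 in control and from 5.16 to 5.91 in mutant arrays over 6 genes, 5 higher and 1 lower (median difference 0.030). Among them Col1a1 differed by 1.26 (limma adjusted p = 0.157), the highest difference of all tested probes, and the Bglap1 probes by 0.63 to 0.95. Nerve markers ran from 4.96 to 5.02 and from 5.06 to 5.47 over 3 genes. The 7 tested markers of dental epithelium ran from 9.28 to 9.32 and from 9.25 to 9.36. The endothelial list (2 of 7 genes tested), the red blood cell list (2 of 6) and the adipocyte list (1 of 7, which was Ucp1) had few detected members. The part of these cell types in the subunit values was not tested.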

How the data were processed

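Total RNA of 3 control and 4 mutant loops was labelled with biotin and hybridised to Illumina arrays, per the labels' protocols. The deposited table gives, per the file headers, an intensity for each probe as a mean over beads, not normalised, a detection p-value and the number of beads. The authors also deposited log2 values adjusted with ComBat for the array ID, which form the series matrix, and a comparison with a p-value, a q-value and a fold score that is a signed ratio of mean log2 values. The sources used here do not give the steps before ComBat, which is named in the title of that table.

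Background correction of the intensities used limma 3.58.1 under R 4.3.3 (normal-exponential convolution, negative controls inferred from detection p-values, offset 16), followed by quantile normalisation and log2. The offset compresses differences of dim probes. The 14666 probes detected (p under 0.05) on at least 3 arrays were fitted with lmFit and eBayes on genotype and chip (4 residual and 15.4 prior degrees of freedom), with Benjamini-Hochberg adjustment over all of them. Group means and SDs are without the chip term, and within-chip differences come from fits to the arrays of 1 chip. The fit was tested on simulated data. Medians over a complex carry no test. Probe brightness was not compared between genes.

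Values on every array are given for called members, of which there were 0, or for up to 4 probes of smallest unadjusted p per complex (2 for complex II), probes of a gene differing by over 0.3 (there were 0), and tissue isoforms with their general form; of each other list the 2 genes of smallest p are named, on their probe of smallest p. Other members were named for their role. Some results that this rule covers are not reported here. Members and lists were chosen with earlier results of these data known. All 69 symbols matched the RefSeq table of GRCm38.p6, 2 through an older symbol. Transcripts of the mitochondrial genome were not analysed here. Detection filter, background, offset, scaling, chip, array weights, eBayes options, the series matrix, the replicate number and each single array were varied as alternatives.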

Additional observations from a re-analysis of the deposited data

Results flagged for a closer look

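The mean of the 42 tested complex I probes stood apart on 1 array. In mutant replicate 1 it was 7.14 on the normalised log2 scale, against 7.002, 6.998 and 6.99 in the other mutant arrays, and the gap took up 0.937 of the range of the mutant group, above Dixon's 95% critical value for 4 samples. Of the 27 probes and complex means examined this way, 1 was singled out, and chance does so in about 1 group of 20. That array was the highest of the 4 mutant arrays for 27 of the 42 complex I probes, and for 49.4% of all member probes against 25.7% of all tested probes. Its 14149 detected probes and its median of 36 beads per probe lay within the range of the other arrays.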

How the results depend on the processing

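The count of 0 called members held in all 19 alternatives, with 0 to 9 members at an unadjusted p under 0.05. With median scaling these were 9 of 79 members, against 1694 of all 14666 tested probes. The series matrix values gave 8 members against 1536 probes, and the fit without the chip term gave 0 against 954. With median scaling and the series matrix values the share of members was thus close to that of all tested probes, unlike in the main fit. Over the whole array, limma called 0 probes in place of 9 without the detection filter, without background correction, with offset 50 and in the series matrix values, 1 on the first chip alone and 14 on the second, and 0 to 14 when 1 array was left out (14 with control replicate 1 out, 9 with mutant replicate 2 out, and at most 2 with any other array out). Median scaling moved the median difference of complexes I to V to 0.15, 0.15, 0.043, 0.077 and 0.10. That of complex V was 0.10 on the first chip alone, -0.076 on the second, and -0.041 to 0.10 when 1 array was left out.

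Of 418 values of the 22 named probes under the alternatives, 396 kept their sign, and the smallest adjusted p was 0.220. Signs changed on the second chip alone for Ndufc1 (0.036), Sdhb (-0.17), Uqcrfs1 (-0.13), Uqcrc1 (0.010), Cox7b (-0.085), Atp5h (-0.033), Atp5b (-0.058) and a Cox6b1 probe (0.0083), and with median scaling for Uqcrc1 (0.013), Uqcrc2 (0.073), Cox6a1 (0.053) and Cox6b1 (0.092). With 1 array left out, the values ranged over zero for that Cox6a1 probe (-0.17 to 0.0063), that Cox6b1 probe (-0.058 to 0.0040), Cox6b2 (-0.051 to 0.064) and Cox7a2 (-0.011 to 0.31). Cox6b2, near zero throughout, was -0.026 without the chip term, -0.00072 on the first chip alone and -0.021 with the replicate block. The replicate numbers were not taken to pair the samples. Deviations from the group means correlated at -0.019, 0.15 and 0.15 between same-numbered arrays, and not every pair was over 0.1. Same-numbered arrays lay on the same chip and the deviations kept the chip effect, so these correlations cannot decide whether samples were paired. Control replicates 2 and 3 correlated best with their own number, and control replicate 1 with mutant replicate 4. With the replicate block limma called 0 members and 6 probes in all. The number of arrays and the closeness of dim probes to background limit what could be seen.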
